A study of Mus musculus with 19 samples.

Results

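Sorted hippocampal astrocytes were compared with the other cells of the same tissue, to find which transport, metabolic, receptor, transcription factor and secreted functions set astrocytes apart beyond their usual markers. All genes with a mean normalized level of at least 10 in either group were kept, which gave 26709 of 60567 genes listed. The samples were 7 of GFP+ astrocytes and 3 of GFP- cells, of the 19 in the series. They came from male, 9-month-old C57bl6 mice without the APP transgene (WT-GFP). All 10 samples thus shared the WT genotype, the age and the injection into hippocampal CA1 of an adeno-associated virus that encodes GFP under gfaABC1D, an astrocyte promoter. Dissociated cells were freed of myelin and sorted by GFP fluorescence. The sort for GFP was therefore aimed at the astrocytes that the virus had reached. GFP+ samples also held reads of markers of other cell types. The authors describe the GFP- cells as a mixture of microglia, neurons, oligodendrocyte precursor cells and astrocytes without virus. Markers of vessel cells were also high in them, as given below. Levels are read counts of a gene divided by 1 size factor per sample, and a difference is the mean log2(level + 1) in astrocytes minus that in GFP- cells, with its standard error (SE). Genes were called higher or lower when the Benjamini-Hochberg adjusted p of the limma test was under 0.05 and the fold change was at least 1.5. The labels do not say which samples came from the same mouse, so p-values measure the spread between these samples, which may in part be technical.

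Sequencing gave 19331876 to 32621917 reads on genes per astrocyte sample and 19572196 to 27288644 per GFP- sample. The number of genes with reads was 15575 to 25514 in astrocytes and 30807 to 31897 in GFP- cells, and astrocyte samples 3, 2 and 1 had the fewest. All 14 astrocyte marker genes tested were higher in astrocytes, and their summed level was 599441 to 978157 against 23865 to 80129 in GFP- cells, of which sample 1 had the most. All 19 microglial, 12 mural and 8 oligodendrocyte precursor markers were lower, as were 17 of 20 endothelial, 6 of 8 fibroblast, 6 of 11 neuronal, 4 of 8 perivascular macrophage, 4 of 9 blood cell and 3 of 8 choroid plexus markers. Of these, edgeR also called 16 microglial, 11 mural, 6 precursor, 17 endothelial, 5 fibroblast, 2 neuronal, 4 blood cell, 0 perivascular macrophage and 0 choroid plexus markers. The mean summed level of a marker list in astrocytes was between 7.74% (mural) and 25.5% (choroid plexus) of that in GFP- cells for these 9 cell types. Within GFP- cells, endothelial markers summed to 174966 to 274109 and mural markers to 137939.8 to 180889.7. Microglial markers summed to 137034 to 227118 there, and neuronal markers to 4759 to 9882. Such sums are not shares of cells. Markers of ependymal cells had 0 of 8 calls by limma and by edgeR, 0 with an unadjusted p under 0.05, and stood at 93.3% of the GFP- level, and oligodendrocyte markers had 1 higher and 2 lower of 9. The oligodendrocyte marker sum was higher in astrocytes, at 4961 to 7349 against 2888 to 4013, or 167% of the GFP- level. All markers of these cell types had reads in at least 1 astrocyte sample, except 1 neuronal marker at 0 in all 7. Choroid plexus markers summed to 89210.3 in astrocyte sample 3 and 53877 in sample 4, within the range of GFP- cells (44075 to 123375), and blood cell markers to 46710.0 in sample 2. In bulk samples, fewer cells of a type and less RNA per cell cannot be told apart.

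**Figure D1:**
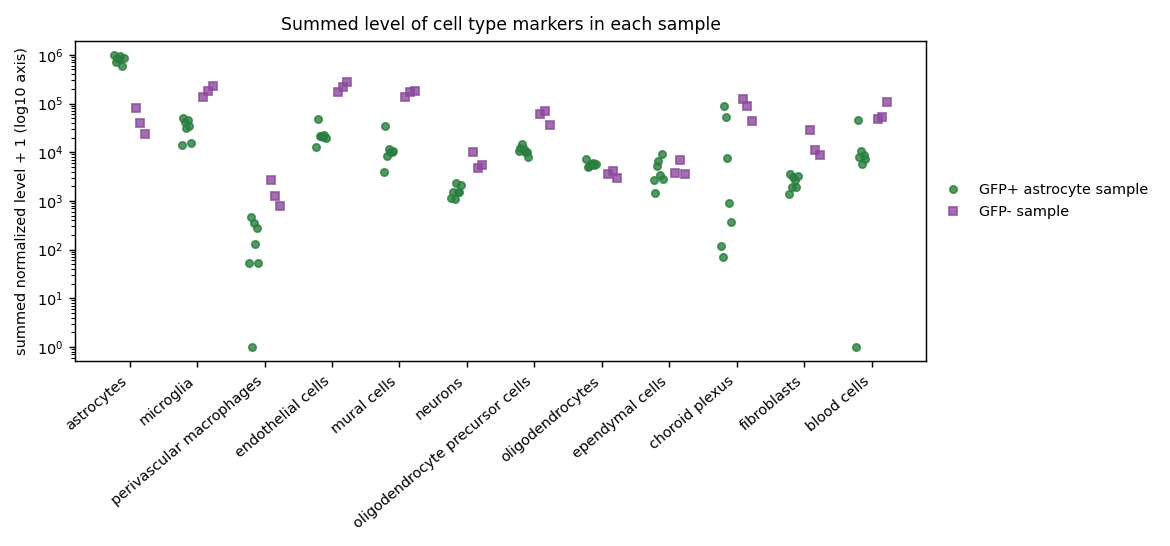
Summed normalized level + 1 of the markers of 12 cell types (log10 axis) in each of 7 GFP+ astrocyte samples (circles) and 3 GFP- samples (squares). Astrocyte markers were at 599441 to 978157 in every GFP+ sample, and the sums of choroid plexus and blood cell markers spread widely among the GFP+ samples.

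Of all genes tested, 1938 (7.26%) were higher and 6539 (24.5%) lower in astrocytes, and the median difference was -1.31. Genes of the lists were read from entries that carry 1 symbol. For a symbol on more than 1 entry, the entry with the highest mean level over the series was used. Of the 16041 genes tested that had 1 symbol on 1 entry, 9.71% were higher and 23.4% lower. The called-higher genes held 49.2% to 54.1% of reads in astrocyte samples and 10.7% to 15.3% in GFP- samples. A gene was taken as undetected in a group when every sample had at most 3 reads, and 1943 tested genes were undetected in all 7 astrocyte samples against 238 in the 3 GFP- samples. Where a gene was at 0 in astrocyte samples, the size of its log2 difference depends on the added 1 and can exceed the ratio of the mean levels (for the zinc and manganese carrier Slc39a8 the difference was -6.28 and the GFP- mean 15.2-fold the astrocyte mean), and for genes undetected in all 7 astrocyte samples a lower bound of the fold was computed from a level of 3 reads. The higher calls were shared with a count model: edgeR on the recovered reads called 1856 of the 1938. Of the 6539 lower genes it called 2896, so the edgeR call is given beside lower counts. With GFP- sample 1, 2 or 3 left out, 4189, 4566 and 3955 genes were lower. Of the 38 gene lists described below, 34 had fewer lower calls by more than 1.5 times in edgeR, and 23, 21 and 25 without GFP- sample 1, 2 or 3. Genes named by rule in those lists had to be called with no overlap between the groups, so their lack of overlap follows from that choice. Of all genes tested, 7.57% did not overlap and were higher, and 27.2% did not overlap and were lower.

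Astrocytes tile the brain between synapses and blood vessels. They clear transmitters, ions and water from the extracellular space, take up fuel from the blood, make serine, glutamine and lipids for neurons, and secrete factors that act on synapses, vessels and matrix. Solute carriers (Slc genes) and ABC proteins move these compounds across membranes, and a small set of transcription factors inherited from radial glia is active in mature astrocytes.

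The promoters of 5 genes that stood far higher in astrocytes, 1 for each function described, show what lies next to their start sites. The windows run from 250 bases before to 50 after the start in RefSeq (GRCm38.p6), 5′ to 3′ on the strand of the gene. Capitals mark matches to TTGGC, 1 arm of the palindromic site of nuclear factor I (NFI), a transcription factor family of astrocytes, on either strand, and in Ntsr2 also a match to TTCNNNGAA, a site type of STAT factors. The windows are those of the transporter gene Slc15a2 (chr16:36784913-36785212, minus strand), the lipid hydroxylase gene Cyp4f15 (chr17:32685409-32685708, plus strand), the receptor gene Ntsr2 (chr12:16653220-16653519, plus strand), the transcription factor gene Fezf2 (chr14:12345816-12346115, minus strand), whose window holds neither match, and the secreted protease gene Htra1 (chr7:130935953-130936252, plus strand).
Slc15a2: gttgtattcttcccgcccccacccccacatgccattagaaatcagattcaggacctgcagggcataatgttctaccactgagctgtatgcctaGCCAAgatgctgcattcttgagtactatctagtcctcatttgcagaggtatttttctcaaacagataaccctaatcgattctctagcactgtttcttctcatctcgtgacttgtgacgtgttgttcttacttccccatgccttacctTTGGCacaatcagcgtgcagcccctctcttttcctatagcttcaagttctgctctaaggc
Cyp4f15: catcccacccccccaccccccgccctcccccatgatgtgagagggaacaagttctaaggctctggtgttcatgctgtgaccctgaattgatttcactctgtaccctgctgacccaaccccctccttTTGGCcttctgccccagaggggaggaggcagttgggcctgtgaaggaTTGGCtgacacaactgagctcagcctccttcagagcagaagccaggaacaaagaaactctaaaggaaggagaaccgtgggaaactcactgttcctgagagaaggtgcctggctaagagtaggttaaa
Ntsr2: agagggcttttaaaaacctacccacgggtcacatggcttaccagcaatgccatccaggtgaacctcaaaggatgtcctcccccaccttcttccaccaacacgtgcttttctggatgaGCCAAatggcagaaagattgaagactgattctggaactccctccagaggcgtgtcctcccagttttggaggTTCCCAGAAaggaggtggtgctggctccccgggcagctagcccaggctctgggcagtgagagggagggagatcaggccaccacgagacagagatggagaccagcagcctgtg
Fezf2: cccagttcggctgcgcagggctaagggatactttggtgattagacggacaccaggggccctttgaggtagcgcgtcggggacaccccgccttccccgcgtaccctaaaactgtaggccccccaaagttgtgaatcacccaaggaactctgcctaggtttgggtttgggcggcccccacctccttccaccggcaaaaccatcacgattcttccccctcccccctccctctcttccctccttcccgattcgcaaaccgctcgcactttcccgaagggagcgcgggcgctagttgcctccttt
Htra1: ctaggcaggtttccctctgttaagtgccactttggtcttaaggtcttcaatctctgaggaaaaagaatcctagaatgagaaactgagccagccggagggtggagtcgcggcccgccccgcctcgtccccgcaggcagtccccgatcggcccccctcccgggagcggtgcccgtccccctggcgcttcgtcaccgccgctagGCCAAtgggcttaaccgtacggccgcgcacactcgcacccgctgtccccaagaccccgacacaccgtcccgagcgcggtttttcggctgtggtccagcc
TTGGC stood on either strand in 53.6% of 1499 promoters of genes called higher, 48.4% of 3532 of genes called lower, 49.1% of 10029 of genes tested and not called, and 46.7% of all 32851 RefSeq promoters. TTCNNNGAA stood in 6.94%, 7.28%, 6.93% and 8.30% of the same sets. A SOX site of 7 bases stood in 2.74%, 2.83%, 2.16% and 3.66% of them. A PU.1 site of 8 bases stood in 1.93%, 3.54%, 2.85% and 3.20%. The full palindrome of NFI stood in 1, 3, 1 and 12 promoters of these sets. The median GC content was 59.7%, 58.7%, 60% and 52.7%. These shares describe the windows only. Promoters were matched by symbol for 1192 of 1558 higher and 2718 of 3755 lower genes that had 1 symbol on 1 entry.

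**Figure D2:**
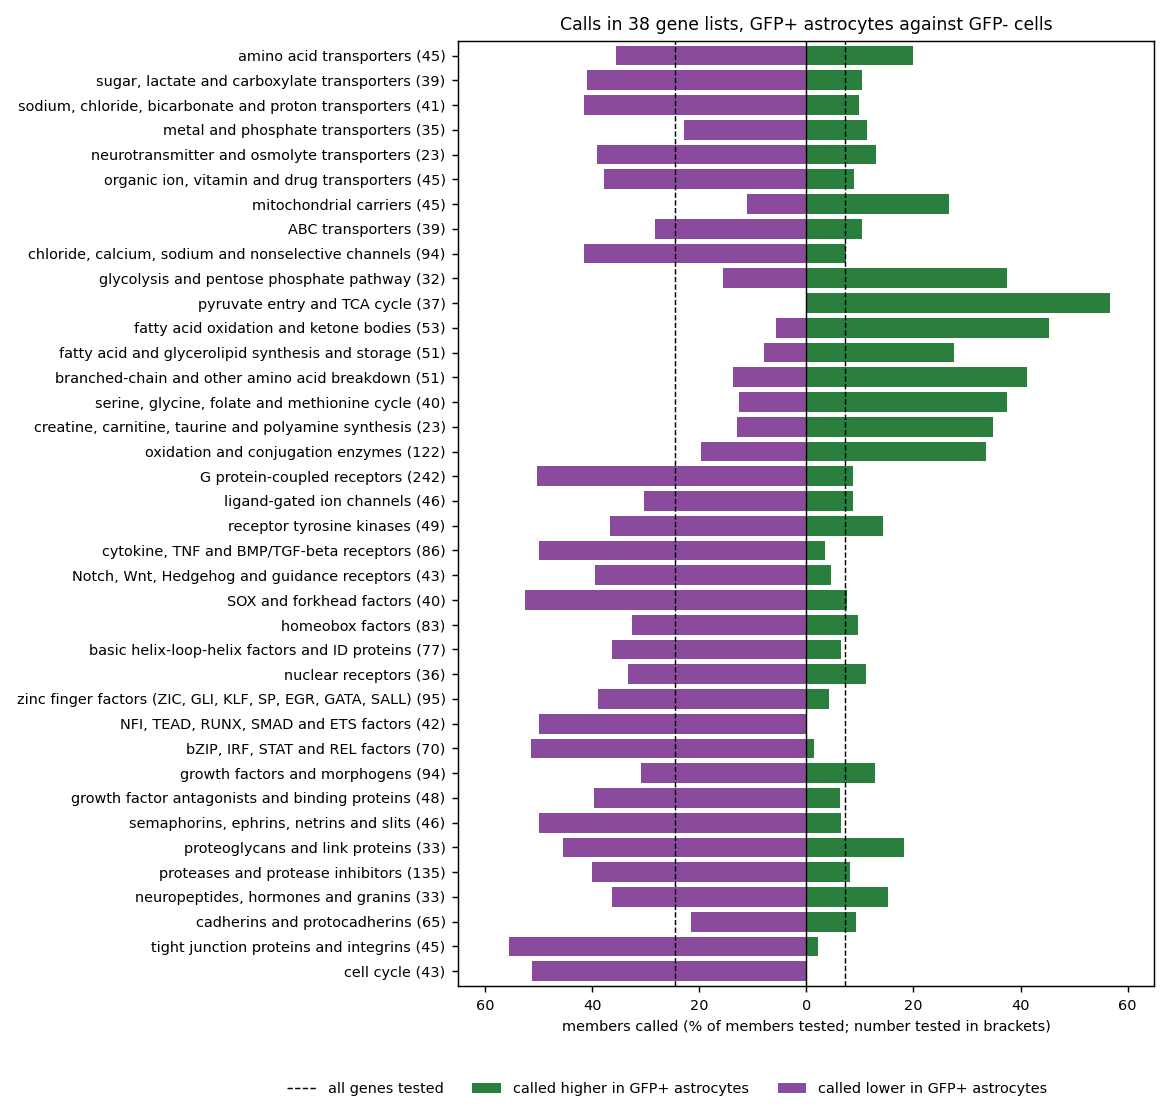
Share of the tested members of 38 gene lists called higher (green, to the right) or lower (purple, to the left) in GFP+ astrocytes, in percent, with the number tested in brackets and the shares of all genes tested as dashed lines (7.26% higher and 24.5% lower). The lists of metabolic enzymes had the most higher calls, and receptors, transcription factors and secreted factors mostly lower calls.

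Metabolic enzymes were the function in which most calls were higher. Of 402 enzyme genes tested in 8 pathway lists, 152 (37.8%) were higher and 51 (12.7%) lower, against 7.26% and 24.5% of all genes, and their median difference was 0.42 against -1.31. Among all genes with an average of the 2 group means of at least 100, 12.9% were higher and 18.7% lower, with a median of -0.61. Of such genes in the 8 lists, 30.4% to 56.8% were higher and 0% to 12.2% lower. EdgeR called all 152 higher and 22 of the 51 lower. With GFP- sample 1, 2 or 3 left out, 36, 38 and 33 were lower. The median of each of the 8 lists lay above the median of all genes in 7 of 7 astrocyte samples. Scaling the samples to equal upper quartiles, which moved the median of all genes to -1.70, left 84 higher and 68 lower.

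**Figure D3:**
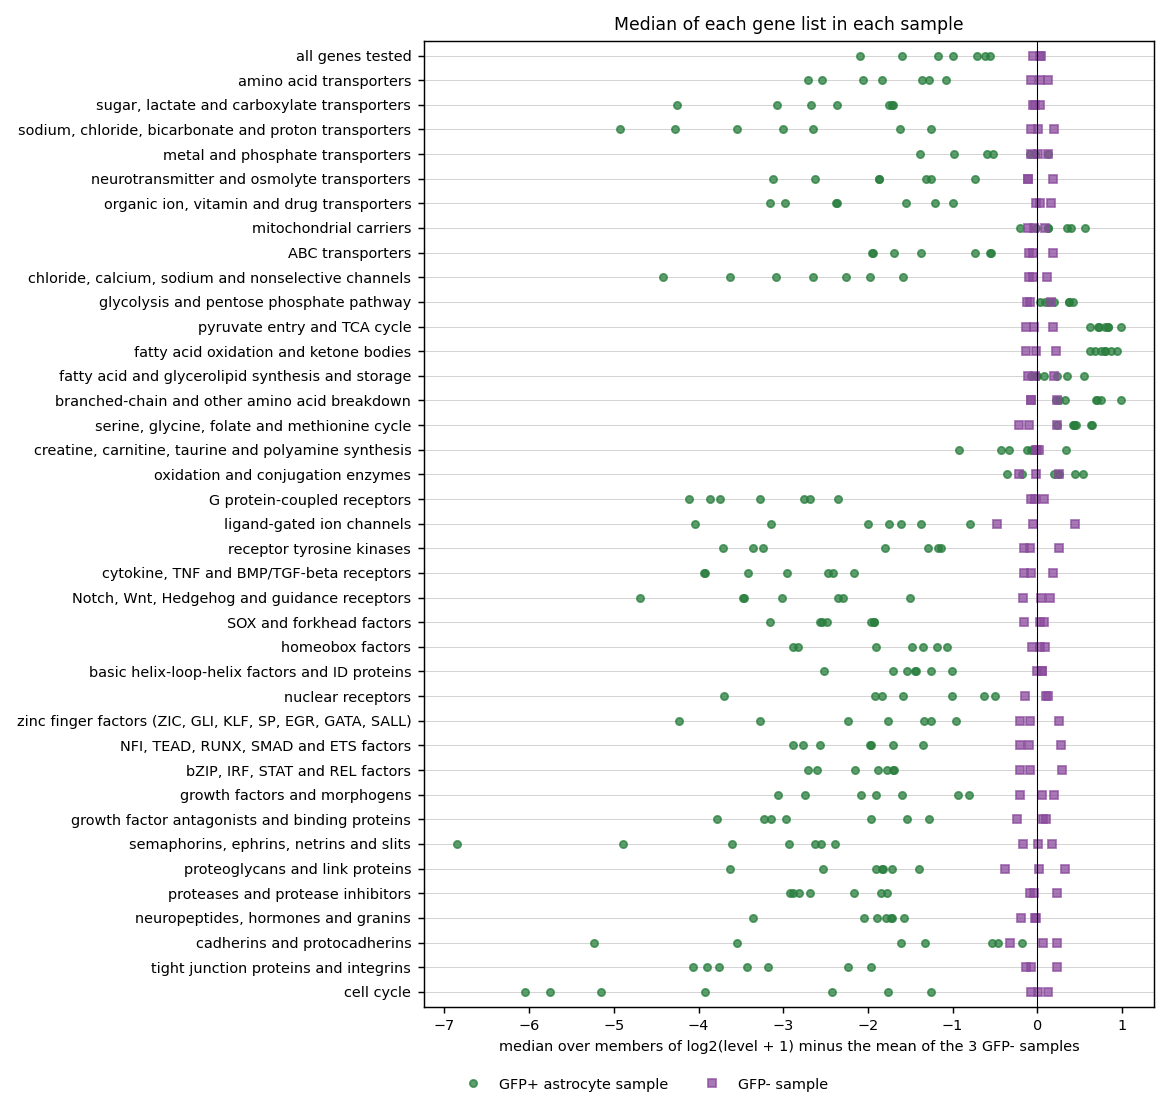
Median over the tested members of each list of log2(level + 1) minus the mean of the 3 GFP- samples, in each GFP+ astrocyte sample (circles) and GFP- sample (squares), with all genes tested in the top row. All genes lay between -2.09 and -0.56 in the astrocyte samples, and the medians of the 8 metabolic lists lay to the right of that row in every one of them.

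Synthesis of serine and its use in the glycine, folate and methionine cycles had more higher than lower genes. Of 40 genes, 15 were higher and 5 lower (median 0.41), and 13 were higher under equal upper quartiles. Phgdh, which catalyses the first step from glycolysis to serine, was at 14485 to 19375 (median 15547) in astrocytes and 2149.6, 1388 and 1086 in GFP- cells. Its 7 astrocyte samples lay close together and all above the GFP- samples, with a difference of 3.45 ± 0.20 (SE, adjusted p = 5.1e-06). Psat1 and Psph, the next enzymes of that route, differed by 2.62 and 2.44, again without overlap (both named after their values were seen). Gldc, the glycine-decarboxylating subunit of the glycine cleavage system, was at 7090.4 to 16694 (median 13034) in astrocytes and 1275, 496 and 457 in GFP- cells. It was the largest difference among the higher genes of that list, 4.17 ± 0.38 (SE, adjusted p = 1.4e-05), and the groups did not overlap. Cbs, which joins serine and homocysteine into cystathionine, was at 6135 to 11572 (median 9945) in astrocytes and 1119, 536 and 563 in GFP- cells and differed by 3.72 ± 0.26 (SE, adjusted p = 7.0e-06). Cth, which splits cystathionine to cysteine, differed by 3.14 (named after its values were seen). Among the lower genes were Bhmt, Bhmt2, Dmgdh and Mthfd1l, with limma adjusted p of 0.0025, 0.0010, 0.0076 and 0.028. EdgeR called 0 of the 5 lower genes (adjusted p 0.17, 0.090, 0.063 and 0.21 for these 4), and without any 1 GFP- sample Mthfd1l also lost its limma call.

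Amino acid breakdown also had more higher than lower genes. Of 51 genes, 21 were higher and 7 lower (edgeR 3 of 7), with a median of 0.53, and 9 were higher under equal upper quartiles. Gpt, alanine aminotransferase, was at 2119.7 to 4138 (median 3514) in astrocytes and 224, 170.1 and 186 in GFP- cells. Astrocyte levels averaged 17.3-fold those of GFP- cells, a difference of 4.09 ± 0.22 (SE, adjusted p = 5.1e-06). Prodh, proline dehydrogenase, was at 5487 to 8584 (median 6417) in astrocytes and 922, 506 and 588 in GFP- cells, a difference of 3.37 ± 0.22 (SE, adjusted p = 7.0e-06). Both genes separated the groups fully, as the rule that named them asks. Asrgl1, an asparaginase-like hydrolase, differed by 2.65. Steps of branched-chain amino acid breakdown were among the higher genes, with differences of 1.42 for Bckdhb, 1.29 for Ivd and 1.14 for Bcat2 (named after their values were seen; Ivd and Bcat2 were not called under equal upper quartiles). Among the lower genes, Ddc, which makes dopamine and serotonin by decarboxylation, was at 1.18 to 315 (median 122) in astrocytes and 1621, 2207 and 3158 in GFP- cells. Every astrocyte sample lay below every GFP- sample, with a difference of -4.92 ± 1.28 (SE, adjusted p = 0.014), and without GFP- sample 2 or 3 the adjusted p of Ddc missed the threshold. Got2, mitochondrial aspartate aminotransferase, was at 128 to 583 (median 338) in astrocytes and 1437, 1196 and 1368 in GFP- cells and differed by -2.16 ± 0.45 (SE, adjusted p = 0.0043).

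The TCA cycle and the entry of pyruvate into it had 0 lower calls. Of 37 genes, 21 (56.8%) were higher, with a median of 0.78, but 4 were called under equal upper quartiles. EdgeR gave 24 higher and 0 lower, and at an unadjusted p under 0.05 the limma counts were 24 and 1. Without astrocyte samples 1, 2 and 3, 19 were higher and 1 lower. Pdk2, a kinase that inhibits pyruvate dehydrogenase, was at 5108 to 8009.5 (median 6204) in astrocytes and 1684, 1539 and 1328 in GFP- cells and differed by 2.03 ± 0.17 (SE, adjusted p = 9.2e-06). Mpc1, a subunit of the mitochondrial pyruvate carrier, was at 970.0 to 2208 (median 1844) in astrocytes and 637, 497 and 467 in GFP- cells and differed by 1.74 ± 0.27 (SE, adjusted p = 6.7e-04). Suclg1, a subunit of succinyl-CoA ligase, was at 7256 to 15063 (median 10474) in astrocytes and 3845, 3329.5 and 2759 in GFP- cells and differed by 1.67 ± 0.21 (SE, adjusted p = 1.4e-04). In each of the 3 genes the lowest astrocyte sample lay above the highest GFP- sample. Pcx, the pyruvate carboxylase that refills the cycle, differed by 1.47, and the cycle enzyme Cs, citrate synthase, by 1.32 (named after their values were seen). Under equal upper quartiles neither was called.

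In glycolysis and the pentose phosphate pathway, 12 of 32 genes were higher and 5 lower (edgeR 2 of 5), with a median of 0.18. Aldoc, the brain aldolase and an astrocyte marker, was the largest, at 5.27. Eno1, the enolase of most tissues, was at 36305 to 64190.4 (median 49241) in astrocytes and 18229.5, 13528 and 11237 in GFP- cells and differed by 1.85 ± 0.19 (SE, adjusted p = 3.2e-05). Ldhb, a lactate dehydrogenase subunit, and Pfkm, the muscle-type phosphofructokinase, differed by 2.76 and 2.51 (named after their values were seen). Hexokinases were among the lower genes. Hk2, the hexokinase induced by insulin and hypoxia, was at 2.27 to 90.2 (median 16.6) in astrocytes and 491, 445 and 544 in GFP- cells, without overlap, and differed by -4.68 ± 1.15 (SE, adjusted p = 0.011). Without GFP- sample 3 its adjusted p missed the threshold. Hk3, the hexokinase of leukocytes, was at 0 to 118 (median 14.7) in astrocytes and 661, 503 and 1007 in GFP- cells and was not called by edgeR (edgeR adjusted p = 0.064), nor with any GFP- sample left out. Microglial markers summed to 18.3% of the GFP- level in astrocytes, and their part in the lower hexokinase levels was not tested.

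Fatty acid oxidation and ketone body genes were higher in 24 of 53 cases and lower in 3 (edgeR 2 of 3; 5 under equal upper quartiles), with a median of 0.72, and 12 were higher under equal upper quartiles. Acsl6, a synthetase that activates long-chain fatty acids with coenzyme A, was at 22776 to 43042 (median 38707) in astrocytes and 3764, 2129 and 1518 in GFP- cells. The groups did not overlap and differed by 3.88 ± 0.28 (SE, adjusted p = 7.0e-06). Bdh1, which interconverts the ketone bodies acetoacetate and 3-hydroxybutyrate, was at 1296 to 1916 (median 1386) in astrocytes and 349.6, 262 and 174 in GFP- cells and differed by 2.57 ± 0.25 (SE, adjusted p = 2.3e-05). Acsl5, another synthetase of the same family, was at 119 to 437 (median 189) in astrocytes and 1290.4, 1899 and 2112 in GFP- cells, the reverse order, and differed by -3.03 ± 0.43 (SE, adjusted p = 3.2e-04). In fatty acid and glycerolipid synthesis, 14 of 51 genes were higher and 4 lower (edgeR 3 of 4; median 0.13). The lower count was 7 under equal upper quartiles and 10 without astrocyte samples 1, 2 and 3. Elovl2, which elongates polyunsaturated fatty acids, was at 306 to 2440.3 (median 1445) in astrocytes and 123.1, 35.5 and 4.42 in GFP- cells. Both groups spread widely, yet did not overlap, and the difference was 5.28 ± 0.91 (SE, adjusted p = 0.0013). Fads2, the desaturase acting on the same fatty acids, differed by 2.86 (named after its values were seen). Fabp5, a fatty acid binding protein, was at 6004 to 11454 (median 6176) in astrocytes and 1284, 716 and 521 in GFP- cells and differed by 3.31 ± 0.32 (SE, adjusted p = 2.0e-05). Plpp3, a lipid phosphate phosphatase, differed by 3.21. Elovl7, an elongase of saturated fatty acids, and Lpcat2, a lysophospholipid acyltransferase, were lower, at -3.21 and -2.41, both also in edgeR.

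Enzymes that oxidize or conjugate lipids, steroids and foreign compounds had 41 higher and 24 lower genes of 122 tested (edgeR 11 of 24; median -0.06), and 27 were higher under equal upper quartiles. Cyp4f15, a fatty acid hydroxylase whose promoter is printed above, was at 8840.3 to 15534 (median 12399.7) in astrocytes and 968, 197 and 305 in GFP- cells. It was among the 10 largest differences of named higher genes, 4.88 ± 0.40 (SE, adjusted p = 9.1e-06). Its near neighbour in sequence, Cyp4f14, was at 3318 to 5223 (median 3931) in astrocytes and 349.6, 104 and 107 in GFP- cells and differed by 4.67 ± 0.35 (SE, adjusted p = 7.0e-06); reads of the Cyp4f and Gstm families can be split between near-identical copies, so their single levels are uncertain. Hsd11b1, which regenerates active glucocorticoid from its inactive form, was at 12915 to 21535 (median 18968) in astrocytes and 1286, 521 and 309 in GFP- cells. It separated the groups by 4.84 ± 0.36 (SE, adjusted p = 7.0e-06). Ephx2, the soluble epoxide hydrolase, and Cyp46a1, which turns cholesterol into 24-hydroxycholesterol, differed by 3.50 and 3.24 (named after their values were seen). Cyp4f18, of the same family as Cyp4f15, was lower, at 0 to 15.8 (median 0.984) in astrocytes and 475, 263 and 292 in GFP- cells, and differed by -7.12 ± 1.03 (SE, adjusted p = 3.8e-04). Aox3, an aldehyde oxidase, had reads in 1 of 7 astrocyte samples (43.3) and was at 939, 216 and 258 in GFP- cells (adjusted p = 9.6e-04).

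Creatine, carnitine, taurine and polyamine synthesis had 8 higher and 3 lower genes of 23 (edgeR 1 of 3; median -0.40), and 3 were higher and 6 lower under equal upper quartiles. Ckb, the brain creatine kinase, was at 170799 to 250326 (median 209426) in astrocytes and 42767, 39724 and 27512 in GFP- cells. This abundant transcript differed by 2.53 ± 0.16 (SE, adjusted p = 7.0e-06) with no overlap. Srm, spermidine synthase, was at 1660.3 to 3314 (median 2208) in astrocytes and 832, 852 and 716 in GFP- cells and differed by 1.51 ± 0.25 (SE, adjusted p = 9.1e-04). Gatm, the first enzyme of creatine synthesis, was at 1828 to 4448 (median 3240.3) in astrocytes and 8566, 10204 and 6877 in GFP- cells. It was lower, with a difference of -1.49 ± 0.30 (SE, adjusted p = 0.0032), close to the median of all genes, and with differences centred on that median it was not called.

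**Figure D4:**
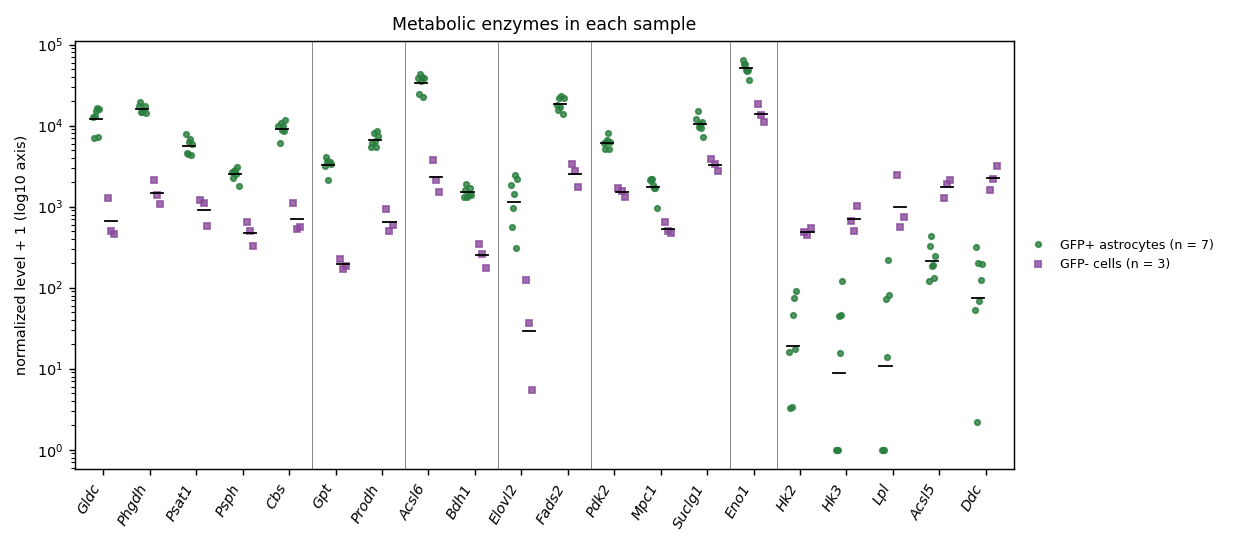
Normalized level + 1 (log10 axis) of 20 metabolic enzymes in each of 7 GFP+ astrocyte samples (circles) and 3 GFP- samples (squares), with geometric means of level + 1 as bars. From Gldc to Eno1 every astrocyte sample lies above every GFP- sample, and from Hk2 to Ddc every one lies below. The genes were chosen among those whose groups do not overlap, or after their values were seen.

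Among transporters and channels, most calls were lower. Of 403 genes in 9 lists, 51 (12.7%) were higher and 136 (33.7%) lower, against 7.26% and 24.5% of all genes. The median was -2.01. EdgeR called 49 of the 51 and 62 of the 136. The lower count was 87, 89 and 86 without GFP- sample 1, 2 or 3, and under equal upper quartiles 25 were higher.

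For amino acids, 9 of 45 transporters were higher and 16 lower (edgeR 9 of 16; median -2.48), and under equal upper quartiles 5 were higher. The excitatory amino acid carriers Slc1a2 and Slc1a3, both astrocyte markers, differed by 4.08 and 3.92. Slc15a2, a carrier of small peptides, was at 2682 to 5436 (median 4106) in astrocytes and 436, 313 and 90.2 in GFP- cells. The astrocyte mean was 14.5-fold that of GFP- cells, a difference of 4.09 ± 0.43 (SE, adjusted p = 3.6e-05). Slc7a10, an exchanger of small neutral amino acids such as glycine and D-serine, was at 22581 to 34559 (median 29004) in astrocytes and 3072, 1641 and 926 in GFP- cells and differed by 4.09 ± 0.29 (SE, adjusted p = 7.0e-06). Slc1a4, which exchanges serine and other neutral amino acids, differed by 2.74 (named after its values were seen). Slc1a1, the glutamate carrier of neurons, was at 0 to 30.4 (median 7.90) in astrocytes and 330.0, 414 and 304 in GFP- cells. Every astrocyte sample was below every GFP- sample, with a difference of -5.55 ± 1.27 (SE, adjusted p = 0.0073).

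Among carriers of sugars, lactate and carboxylates, 4 of 39 were higher and 16 lower (edgeR 9 of 16; median -3.19), and under equal upper quartiles 2 were higher. The higher ones were Slc13a3 and Slc13a5, sodium-coupled carriers of dicarboxylates and citrate, and the sugar carriers Slc2a10 and Slc2a8. Slc13a5 and Slc2a8 were not called under equal upper quartiles, nor was Slc13a5 without GFP- sample 2 or 3. Slc13a3 was at 498 to 1478 (median 1200.1) in astrocytes and 289, 154 and 202 in GFP- cells and differed by 2.35 ± 0.36 (SE, adjusted p = 5.5e-04), and Slc2a10 by 2.02 ± 0.35 (SE, adjusted p = 0.0014). Slc2a1, the glucose carrier of the blood-brain barrier and also of astrocytes, was lower, at 5619 to 9155 (median 7853) in astrocytes and 22089, 24156 and 35165 in GFP- cells. Its difference was -1.85 ± 0.20 (SE, adjusted p = 4.3e-05) without overlap, beside endothelial markers at 10.8% of the GFP- level, whose part in it was not tested. Centred on the median of all genes the difference of Slc2a1 was -0.54, which is under the fold threshold. Slc16a7, a monocarboxylate carrier of neurons, had reads in 2 of 7 astrocyte samples, up to 7.79, and was at 284, 166 and 195 in GFP- cells (adjusted p = 3.0e-04). The choline carrier Slc5a7, of cholinergic neurons, was undetected in astrocytes and at 224, 130.1 and 46.0 in GFP- cells, which is at least 37.8-fold lower, or 24.9-fold without GFP- sample 1.

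Carriers of sodium, chloride, bicarbonate and protons had 4 higher and 17 lower of 41 (edgeR 6 of 17; median -3.55). Slc26a6, an anion exchanger, was at 1151 to 2658 (median 2519) in astrocytes and 274, 247 and 255 in GFP- cells and differed by 2.95 ± 0.31 (SE, adjusted p = 4.1e-05). Slc8b1, the sodium-calcium exchanger of mitochondria, was at 1348 to 2695 (median 1792) in astrocytes and 568, 465 and 649 in GFP- cells and differed by 1.78 ± 0.24 (SE, adjusted p = 2.2e-04). Neither overlapped. Under equal upper quartiles, or without GFP- sample 2 or 3, these were the only higher calls of that list. Slc26a7, of the same family as Slc26a6, had 0 reads in all 7 astrocyte samples and was at 21.8, 229.9 and 72.5 in GFP- cells, at least 30.6-fold lower, or 13.3-fold without GFP- sample 2. Metal and phosphate carriers had 4 higher and 8 lower of 35 (edgeR 3 of 8; median -0.60). Slc39a12, a zinc importer, was at 10606 to 25509.7 (median 19709) in astrocytes and 2759, 1106 and 874 in GFP- cells. Its difference of 3.66 ± 0.37 (SE, adjusted p = 2.9e-05) was the largest of the higher genes of that list, of which 2 stayed called without GFP- sample 2 or 3 and 1 under equal upper quartiles. The count of higher genes was 7 in edgeR and without astrocyte samples 1, 2 and 3. Slc40a1, the iron exporter ferroportin, was lower, at 384 to 1217 (median 795) in astrocytes and 3844, 5895 and 6743 in GFP- cells, with a difference of -2.78 ± 0.35 (SE, adjusted p = 1.5e-04).

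Transmitter and osmolyte carriers had 3 higher and 9 lower of 23 (edgeR 3 of 9, median -1.93). Of the 11 with an average of the 2 group means of at least 100, 3 were higher and 1 (9.09%) lower. The lower share of all genes at that level was 18.7%. Among the higher ones were the GABA carrier Slc6a11, at 2.66, and the nucleoside carrier Slc29a2, at 2.19. Organic ion, vitamin and drug carriers had 4 higher and 17 lower of 45 (edgeR 7 of 17; median -1.97). Slc14a1, a urea carrier, was at 1731 to 6271 (median 3502) in astrocytes and 420.3, 269 and 199.8 in GFP- cells and differed by 3.68 ± 0.36 (SE, adjusted p = 2.4e-05). Slc27a1, which takes up long-chain fatty acids, was at 28351 to 42639 (median 32019) in astrocytes and 4567, 2549 and 2197 in GFP- cells and differed by 3.54 ± 0.22 (SE, adjusted p = 7.0e-06). Slc46a1, the proton-coupled folate carrier, was at 3049 to 4027 (median 3549.8) in astrocytes and 862, 777 and 849 in GFP- cells and differed by 2.05 ± 0.15 (SE, adjusted p = 7.0e-06), with little spread in either group. Slc28a2, a sodium-coupled nucleoside carrier, had 0 reads in all 7 astrocyte samples and was at 182, 93.8 and 165 in GFP- cells, at least 41.6-fold lower. Slc47a1, an exporter of organic cations, was at 80.6, 730.5 and 240.4 in GFP- cells and had reads in 1 astrocyte sample (11.8; adjusted p = 3.0e-04).

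Carriers of the inner mitochondrial membrane had more higher than lower calls: 12 of 45 were higher and 5 lower (edgeR 1 of 5; 9 without astrocyte samples 1, 2 and 3), the median was 0.13, and 4 were higher under equal upper quartiles. Slc25a18, a glutamate carrier, was at 9215 to 16692 (median 13497) in astrocytes and 1252, 873 and 443 in GFP- cells. The astrocyte mean was 15.5-fold that of GFP- cells, a difference of 4.06 ± 0.29 (SE, adjusted p = 7.0e-06). Slc25a4, an ADP/ATP carrier, was at 12406 to 24462 (median 19473) in astrocytes and 8075, 7479 and 5735 in GFP- cells and differed by 1.48 ± 0.21 (SE, adjusted p = 2.9e-04). Ucp2, an uncoupling protein, was at 326 to 1854 (median 855) in astrocytes and 7429, 7263 and 8696 in GFP- cells and was lower, with a difference of -3.21 ± 0.43 (SE, adjusted p = 2.3e-04). Of 39 ABC transporters, 4 were higher and 11 lower (edgeR 6 of 11; median -1.35). The higher count was 2 under equal upper quartiles and 7 without astrocyte samples 1, 2 and 3. Abcb9, a lysosomal peptide transporter, was at 1314 to 2254 (median 1919.7) in astrocytes and 395, 222 and 347 in GFP- cells and differed by 2.56 ± 0.24 (SE, adjusted p = 1.7e-05). The mitochondrial Abcb8 differed by 1.51. Abcc6, an ATP-releasing transporter, was lower, at 0 to 49.3 (median 0) in astrocytes and 1026, 609 and 1412 in GFP- cells (adjusted p = 0.0048).

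Chloride, calcium, sodium and nonselective channels had 7 higher and 39 lower of 94 (edgeR 19 of 39; median -3.02). Ttyh1, of the tweety family of membrane proteins, was at 26033 to 36658 (median 29363) in astrocytes and 5279, 3196 and 2409 in GFP- cells. All astrocyte samples were above all GFP- samples, by 3.12 ± 0.21 (SE, adjusted p = 7.0e-06). Ttyh3, of the same family, and Clcn2, a chloride channel, differed by 1.85 and 1.87. Of the 7 higher genes, 4 were called without GFP- sample 3 and 3, Clcn2 not among them, under equal upper quartiles. Cacna1e, the pore of R-type calcium channels of neurons, had reads in 1 astrocyte sample (11.3) and was at 402, 217 and 257 in GFP- cells (adjusted p = 1.1e-04). Neuronal markers summed to 23.9% of the GFP- level, and their part in this lower level was not tested.

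Receptors had more lower than higher calls. Of 466 genes in 5 lists, 37 (7.94%) were higher and 214 (45.9%) lower, against 7.26% and 24.5% of all genes. The higher share was thus close to that of all genes. The median was -3.28, or -3.07 with undetected genes at their bound. EdgeR called all 37 and 113 of the 214. Without GFP- sample 1, 2 or 3, 141, 154 and 148 were lower. Without astrocyte samples 1, 2 and 3, which had the fewest genes with reads, 54 were higher and 223 lower. Under equal upper quartiles 27 were higher, 13 of them G protein-coupled receptors.

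G protein-coupled receptors had 21 higher and 122 lower of 242 (edgeR 68 of 122; median -3.40), and 48 of the lower ones were undetected in astrocytes. Ntsr2, a receptor of the peptide neurotensin, was at 101794 to 130373 (median 114288) in astrocytes and 8342, 3955 and 2779 in GFP- cells. Its difference of 4.64 ± 0.26 (SE, adjusted p = 5.1e-06) was the largest of the higher genes of that list. Grm3, a metabotropic glutamate receptor, was at 4306 to 10422 (median 9265) in astrocytes and 1259, 620.1 and 507 in GFP- cells and differed by 3.40 ± 0.34 (SE, adjusted p = 2.7e-05). Gpr37, a receptor bound by prosaposin peptides, was at 1299 to 4386 (median 2233) in astrocytes and 294, 196 and 105 in GFP- cells and differed by 3.68 ± 0.43 (SE, adjusted p = 8.9e-05). None of the 3 overlapped. Gprc5b, an orphan receptor, differed by 2.96 (named after its values were seen). Sstr1, a somatostatin receptor, was at 0 to 48.8 (median 0) in astrocytes and 659, 1305 and 389.8 in GFP- cells (adjusted p = 0.0034). The chemokine receptor Ccr7, of leukocytes, had 0 reads in all 7 astrocyte samples and was at 211, 89.2 and 277 in GFP- cells, at least 54.5-fold lower.

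Ligand-gated ion channels had 4 higher and 14 lower of 46 (edgeR 4 of 14; median -2.49). The higher ones were 1 NMDA receptor subunit, 2 GABA-A receptor subunits and the purinergic subunit P2rx6. Grin2c was at 3899.5 to 9295 (median 6344) in astrocytes and 686, 259 and 312 in GFP- cells and differed by 4.02 ± 0.35 (SE, adjusted p = 1.1e-05). Gabrb1 was at 5532 to 7989 (median 6983) in astrocytes and 1079, 454 and 296 in GFP- cells and differed by 3.71 ± 0.32 (SE, adjusted p = 1.1e-05), and Gabrg1 by 3.52 ± 0.43 (SE, adjusted p = 1.1e-04). The kainate receptor subunit Grik3 had reads in 1 astrocyte sample (5.19) and was at 341, 253 and 191 in GFP- cells (adjusted p = 2.9e-05).

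Receptor tyrosine kinases had 7 higher and 18 lower of 49 (edgeR 10 of 18; median -3.18), and 11 were higher without astrocyte samples 1, 2 and 3. The higher ones were 4 fibroblast growth factor receptor genes (Fgfr1, Fgfr2, Fgfr3, Fgfrl1), the ephrin receptors Ephb1 and Ephb3, and Ntrk2. Ephb1 was at 885 to 2135 (median 1231) in astrocytes and 174, 147 and 67.2 in GFP- cells and differed by 3.54 ± 0.39 (SE, adjusted p = 5.4e-05). Ntrk2, the receptor of brain-derived neurotrophic factor, was at 26201 to 41633 (median 37731) in astrocytes and 6732, 4805 and 2608 in GFP- cells and differed by 3.00 ± 0.26 (SE, adjusted p = 1.1e-05). Ret, the signalling subunit of receptors for the GDNF family, was lower, at 0 to 19 (median 0) in astrocytes and 278, 158 and 628 in GFP- cells (adjusted p = 4.6e-04). Of cytokine, TNF and BMP/TGF-beta receptors, 3 of 86 were higher and 43 lower (edgeR 21 of 43; median -3.01). The 3 higher genes were Il11ra1, the interleukin 11 receptor subunit, at 1.72, the growth hormone receptor Ghr at 1.17, and the BMP receptor Bmpr1b at 3.61. Il11ra1 was at 3859 to 6139 (median 4917) in astrocytes and 1885, 1384 and 1355 in GFP- cells and did not overlap. Ghr lost its call without GFP- sample 2 or 3 and under equal upper quartiles, and Bmpr1b, whose groups overlapped, without GFP- sample 2, which left 1 higher call in that list. Il1r2, the decoy receptor of interleukin 1, had reads in 1 astrocyte sample (6.06) and was at 354, 99.8 and 145 in GFP- cells (adjusted p = 7.9e-05). Tnfrsf1b, a TNF receptor of immune cells, was at 0 to 73.5 (median 0) in astrocytes and 905, 765 and 1745 in GFP- cells (adjusted p = 0.0069). Of Notch, Wnt, Hedgehog and guidance receptors, 2 of 43 were higher and 17 lower (edgeR 10 of 17; median -3.21), and 4 were higher without astrocyte samples 1, 2 and 3. Plxnb1, a semaphorin receptor, and Gas1, a co-receptor of Hedgehog ligands, were the higher ones, at 2.06 ± 0.27 (SE, adjusted p = 1.9e-04) and 1.93 ± 0.24 (SE, adjusted p = 1.5e-04). Unc5b, a netrin receptor, was at 0 to 16.7 (median 0) in astrocytes and 303, 307 and 489.7 in GFP- cells (adjusted p = 0.0017).

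For transcription factors, too, most calls were lower. Of 443 genes in 7 lists, 25 (5.64%) were higher and 182 (41.1%) lower, against 7.26% and 24.5% of all genes. The higher share was thus close to that of all genes, and the median was -2.20. EdgeR called all 25 and 94 of the 182. The lower count was 109, 116 and 99 with GFP- sample 1, 2 or 3 left out, and without astrocyte samples 1, 2 and 3 the count of higher genes was 38.

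SOX and forkhead factors had 3 higher and 21 lower of 40 (edgeR 11 of 21; median -2.94), and the higher ones were Sox2, Sox21 and the marker Sox9. Sox2, a factor of neural stem cells and glia, was at 4375 to 6059.7 (median 4615) in astrocytes and 1027, 707 and 457 in GFP- cells. The astrocyte samples lay within a narrow range above GFP- cells, by 2.82 ± 0.23 (SE, adjusted p = 8.8e-06). Sox21, which belongs to the same subfamily, differed by 2.25 ± 0.26 (SE, adjusted p = 6.7e-05). Sox10, the factor of the oligodendrocyte lineage, was at 0 to 71.8 (median 18.7) in astrocytes and 1036, 1653 and 678 in GFP- cells and lower, with a difference of -6.53 ± 1.42 (SE, adjusted p = 0.0054), beside oligodendrocyte precursor markers at 19.8% of the GFP- level, whose part was not tested. Homeobox factors had 8 higher and 27 lower of 83 (edgeR 12 of 27, median -2.17). Among 43 homeobox genes with an average of the 2 group means of at least 100, 18.6% were higher and 18.6% lower. The shares of all genes at that level were 12.9% and 18.7%. Hopx, an atypical homeodomain protein that does not bind DNA, was at 22115 to 37603 (median 31818) in astrocytes and 2826, 1605 and 843 in GFP- cells and differed by 4.27 ± 0.31 (SE, adjusted p = 7.0e-06). Lhx2 was at 3386 to 4499 (median 3542) in astrocytes and 318, 153 and 243 in GFP- cells and differed by 4.03 ± 0.23 (SE, adjusted p = 5.1e-06). Dbx2 was at 8649.9 to 12423 (median 10334) in astrocytes and 1189, 899.9 and 289 in GFP- cells and differed by 3.94 ± 0.35 (SE, adjusted p = 1.3e-05). None of these 3 overlapped. The cortical patterning factors Pax6 and Emx2 differed by 2.95 and 2.49 (named after their values were seen). Gsx1 had reads in 1 astrocyte sample (6.92) and was at 234.1, 232.2 and 110.5 in GFP- cells (adjusted p = 7.5e-05), and Six4 had 0 reads in all 7, at least 30.3-fold lower.

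Basic helix-loop-helix factors and their ID inhibitors had 5 higher and 28 lower of 77 (edgeR 12 of 28; median -1.98). Id4, an inhibitor of neurogenic factors, was at 17296 to 26717 (median 21737) in astrocytes and 2899, 1738 and 1064 in GFP- cells and differed by 3.64 ± 0.26 (SE, adjusted p = 7.0e-06). Hes5, a Notch target repressor, was at 4151 to 15228 (median 11017) in astrocytes and 977, 1591 and 509 in GFP- cells. It spread more between astrocyte samples, yet without overlap, and differed by 3.36 ± 0.43 (SE, adjusted p = 1.5e-04). Id2 differed by 1.90 ± 0.19 (SE, adjusted p = 2.8e-05). The other higher genes of that list were Npas3 and Bhlhe41, and neither was called without GFP- sample 2, without sample 3 or under equal upper quartiles. EdgeR, and limma without astrocyte samples 1, 2 and 3, gave 8 higher genes. Nuclear receptors had 4 higher and 12 lower of 36 (edgeR 5 of 12; median -1.83). The higher ones were Nr2e1 (Tlx), at 2.94, Nr2f1 (COUP-TFI), at 2.47 ± 0.44 (SE, adjusted p = 0.0015), the clock repressor Nr1d1, at 1.53 ± 0.25 (SE, adjusted p = 8.0e-04), and Nr1i3, the constitutive androstane receptor, at 1.07, which lost its call with any GFP- sample left out. The groups overlapped in Nr2e1. Zinc finger factors of the ZIC, GLI, KLF, SP, EGR, GATA and SALL families had 4 higher and 37 lower of 95 (edgeR 20 of 37; median -2.24), and 7 were higher without astrocyte samples 1, 2 and 3. Fezf2, a zinc finger factor known for specifying deep-layer cortical neurons, was at 969.9 to 1860.1 (median 1419) in astrocytes and 129.6, 69.6 and 40.7 in GFP- cells. The difference was 4.34 ± 0.35 (SE, adjusted p = 8.8e-06), without overlap. Klf15, a glucocorticoid-responsive factor, was at 1419 to 3353 (median 2416) in astrocytes and 731, 626 and 280.2 in GFP- cells and differed by 2.31 ± 0.34 (SE, adjusted p = 4.3e-04).

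In the list of NFI, TEAD, RUNX, SMAD and ETS factors 0 of 42 were higher and 21 lower by limma (edgeR 0 higher and 11 of the 21 lower; median -2.49), and 1 gene was higher at an unadjusted p under 0.05. Without GFP- sample 1, 2 or 3, 10, 10 and 8 of its genes were lower, and without astrocyte samples 1, 2 and 3, 1 was higher. Elf4, an ETS factor of lymphoid and myeloid cells, had 0 reads in all 7 astrocyte samples and was at 86.0, 103 and 196 in GFP- cells, at least 36.4-fold lower. Of bZIP, IRF, STAT and REL factors, 1 of 70 was higher and 36 lower (edgeR 23 of 36; median -2.50). That higher gene was Dbp, an output of the circadian clock, at 1102 to 1633 (median 1318) in astrocytes and 243, 236 and 219 in GFP- cells, with a difference of 2.53 ± 0.21 (SE, adjusted p = 9.0e-06) and no overlap. EdgeR gave 3 higher genes in that list. Rel, an NF-kB subunit of lymphoid and myeloid cells, was at 0 to 33.7 (median 1.04) in astrocytes and 323, 169 and 664 in GFP- cells (adjusted p = 0.0032), and Bach1, a repressor of the haem oxygenase gene, at 0 to 18.7 (median 6.92) in astrocytes and 238, 348 and 316 in GFP- cells (adjusted p = 0.0026). Microglial markers summed to 18.3% and blood cell markers to 18.1% of the GFP- level in astrocytes. Their part in the lower levels of these genes was not tested.

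Among secreted factors and matrix, too, most calls were lower. Differences in share between this family, receptors and transcription factors were not tested. Of 382 genes in 6 lists, 39 (10.2%) were higher and 150 (39.3%) lower, against 7.26% and 24.5% of all genes. The higher share was close to the 9.71% of all genes tested with 1 symbol on 1 entry, of which 23.4% were lower. The median was -2.91. EdgeR called all 39 and 67 of the 150. With any 1 GFP- sample left out, 86 to 89 were lower.

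Growth factors and morphogens had 12 higher and 29 lower of 94 (edgeR 15 of 29; median -2.33). Ndp, norrin, a ligand of Frizzled 4 needed for retinal and brain vessels, was at 2887 to 7011 (median 5534) in astrocytes and 799, 741 and 187 in GFP- cells and differed by 3.38 ± 0.44 (SE, adjusted p = 1.9e-04). Gdf10, a member of the TGF-beta superfamily, was at 729 to 1524 (median 819) in astrocytes and 268, 141 and 86.6 in GFP- cells and differed by 2.71 ± 0.38 (SE, adjusted p = 3.0e-04). Mdk, the heparin-binding factor midkine, was at 1872 to 5375 (median 3081) in astrocytes and 810.2, 687 and 239 in GFP- cells and differed by 2.70 ± 0.42 (SE, adjusted p = 6.8e-04). In all 3 the lowest astrocyte sample was above the highest GFP- sample. Vegfa, the main growth factor of vessels, and Wnt7a differed by 2.05 and 2.27 (named after their values were seen). Nodal, a morphogen of the TGF-beta superfamily, was at 0 to 51.8 (median 1.97) in astrocytes and 566, 856 and 989.9 in GFP- cells (adjusted p = 0.0023).

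Among antagonists and binding proteins of growth factors 3 of 48 were higher and 19 lower (edgeR 7 of 19; median -2.94), and 5 were higher in edgeR and without astrocyte samples 1, 2 and 3. Htra1, a secreted serine protease that cleaves matrix and TGF-beta family proteins, was at 53680.0 to 79281 (median 63227) in astrocytes and 7097, 3591 and 2549.9 in GFP- cells. Its astrocyte mean was 14.4-fold that of GFP- cells, a difference of 3.97 ± 0.26 (SE, adjusted p = 7.0e-06). Dkk3, of the Dickkopf family, was at 982 to 4192 (median 3019) in astrocytes and 607, 441 and 269.6 in GFP- cells and differed by 2.66 ± 0.42 (SE, adjusted p = 7.5e-04). Igfbp2, a binding protein of insulin-like growth factors, was at 8888 to 33276 (median 15055) in astrocytes and 6659, 5629 and 2826 in GFP- cells and differed by 1.80 ± 0.36 (SE, adjusted p = 0.0035). The groups did not overlap in either. Sfrp2, which binds Wnt ligands, had reads in 1 astrocyte sample (27.5) and was at 122, 386 and 452 in GFP- cells (adjusted p = 6.5e-04). In the list of semaphorins, ephrins, netrins and slits, 3 of 46 were higher and 23 lower (edgeR 10 of 23; median -3.84). The higher genes were Efna2, an ephrin, at 1.95, Slitrk2, a synaptic adhesion protein, at 1.86, and Rgma, the repulsive guidance molecule, at 1.47. Without GFP- sample 3 only Efna2 was called, under equal upper quartiles 1 of the 3 was, and without sample 1 or 2, or without any 1 of astrocyte samples 1, 3, 4, 5 and 7, Slitrk2 was not. Slitrk6 had 0 reads in all 7 astrocyte samples and was at 224, 275 and 97.2 in GFP- cells, at least 56.3-fold lower. Of proteoglycans and link proteins, 6 of 33 were higher and 15 lower (edgeR 9 of 15; median -2.98). Hapln1, which links hyaluronan to proteoglycans, was at 565 to 1828 (median 1291) in astrocytes and 157, 69.6 and 28.3 in GFP- cells and differed by 4.04 ± 0.53 (SE, adjusted p = 1.8e-04). Bcan, brevican of the perineuronal matrix, was at 36082 to 56925 (median 43219.7) in astrocytes and 10569, 9973 and 5625 in GFP- cells and differed by 2.37 ± 0.20 (SE, adjusted p = 1.0e-05). Ogn, a leucine-rich proteoglycan of connective tissue, was at 0 to 58.8 (median 19.2) in astrocytes and 2110.4, 985 and 428 in GFP- cells, lower without overlap (adjusted p = 0.0073), beside fibroblast markers at 15.5% of the GFP- level, whose part was not tested.

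Proteases and their inhibitors had 11 higher and 54 lower of 135 (edgeR 20 of 54; median -2.91). F3, tissue factor, which starts blood coagulation, was at 24377 to 34752 (median 30264) in astrocytes and 5325, 1962 and 779 in GFP- cells. All astrocyte samples lay above GFP- cells, by 3.90 ± 0.43 (SE, adjusted p = 5.6e-05). Prss50, a serine protease named from testis, was at 184 to 516 (median 347) in astrocytes and 27.2, 46.9 and 3.54 in GFP- cells and differed by 4.12 ± 0.69 (SE, adjusted p = 0.0011). Cst3, the protease inhibitor cystatin C, was abundant in both groups, at 294946 to 874933 (median 600080.2) in astrocytes and 93039, 114928 and 87938 in GFP- cells, with a difference of 2.59 ± 0.27 (SE, adjusted p = 3.8e-05) (named after its values were seen). Mmp9, a matrix metalloproteinase of leukocytes, had reads in 1 astrocyte sample (12.8) and was at 150.3, 197 and 148 in GFP- cells (adjusted p = 2.4e-04). Neuropeptides, hormones and granins had 5 higher and 12 lower of 33 (edgeR 7 of 12; median -1.97). Agt, angiotensinogen, was at 13727 to 36918 (median 16555) in astrocytes and 3652, 1042 and 582 in GFP- cells and differed by 3.92 ± 0.51 (SE, adjusted p = 1.8e-04). Scg3, a granin of secretory granules, was at 27478 to 41760.2 (median 31747) in astrocytes and 3892, 2256 and 1238 in GFP- cells and differed by 3.86 ± 0.28 (SE, adjusted p = 7.0e-06). Apln, the peptide apelin, was at 129 to 287 (median 183) in astrocytes and 41.4, 4.54 and 15.9 in GFP- cells and differed by 3.58 ± 0.66 (SE, adjusted p = 0.0019). None of these 3 genes overlapped between the groups.

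Adhesion genes had 7 higher and 39 lower of 110 (edgeR all 7 and 20 of 39, median -2.65). These were shares of 6.36% and 35.5%, against 7.26% and 24.5% of all genes. Without GFP- sample 1, 2 or 3, 23, 25 and 26 were lower, and without astrocyte samples 1, 2 and 3, 17 were higher, 15 of them cadherins and protocadherins, of which 6 were higher with all samples and 3 under equal upper quartiles. Among genes with an average of the 2 group means of at least 100, 18.6% of 43 cadherins and protocadherins were lower. That share was 53.6% of 28 tight junction and integrin genes, and 18.7% of all genes at that level. Cldn10 was the 1 gene of 45 tight junction and integrin genes called higher, while 25 were lower (edgeR 13 of 25). This claudin was at 31459 to 58774 (median 52091) in astrocytes and 3444, 1896 and 905 in GFP- cells and differed by 4.69 ± 0.34 (SE, adjusted p = 7.0e-06). Pcdh10, a protocadherin, was at 2167 to 3669 (median 3087) in astrocytes and 1262, 957 and 358 in GFP- cells and differed by 1.97 ± 0.34 (SE, adjusted p = 0.0014); Pcdhb14 was also higher, by 1.88, but belongs to a cluster of near-identical genes and its level is uncertain. Cdh1, the epithelial cadherin, had 0 reads in all 7 astrocyte samples and was at 133.9, 162.6 and 124.6 in GFP- cells, at least 39.8-fold lower. Itga9, an integrin subunit, was at 0 to 7.87 (median 0) in astrocytes and 380.1, 213 and 475 in GFP- cells (adjusted p = 6.0e-05). Cell cycle genes had 0 higher and 22 lower of 43 by limma (median -4.05), 0 and 8 by edgeR, and 0 and 31 by limma at an unadjusted p under 0.05. Without GFP- sample 1, 2 or 3, 14, 11 and 13 were lower. Among 16 cell cycle genes with an average of the 2 group means of at least 100, 0 were higher and 3 (18.8%) lower. Of all genes at that level, 12.9% were higher and 18.7% lower, so the lower share was then close to that of all genes. Top2a, the topoisomerase of dividing cells, was at 0 to 24.6 (median 1.73) in astrocytes and 166, 139 and 271 in GFP- cells and differed by -5.80 ± 1.20 (SE, adjusted p = 0.0041), also in edgeR.

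Some close relatives differed in opposite directions. Among the lists, 21 pairs of relatives chosen after their values were seen had 1 member called higher and the other called lower, and neither member overlapped between groups in any pair, where 7.57% of all genes did not overlap and were higher and 27.2% did not overlap and were lower. The monoamine oxidases were 1 pair: Maob was at 3438 to 7986 (median 6008) in astrocytes and 2180.1, 1827 and 1562 in GFP- cells, and Maoa at 1493 to 2506 (median 1675) in astrocytes and 3475, 4187 and 5012 in GFP- cells. Maob differed by 1.66 ± 0.23 (SE, adjusted p = 3.1e-04) and Maoa by -1.23 ± 0.21 (SE, adjusted p = 0.0013), and after centring on the median of all genes the difference of Maoa was 0.08. Among the lower members of the pairs, Hes1, Slc2a1, Ephb4 and Nr2f2 also lost their calls when centred, at -0.53, -0.54, -0.23 and -0.17. In the elongases, Elovl2 stood at 5.28 and Elovl7 at -3.21, and in the SOX factors Sox2 at 2.82 and Sox10 at -6.53. Hes5 and Hes1 divided in the same way, with Hes1 at 1014 to 1740.5 (median 1296) in astrocytes and 4140.3, 4863 and 5348 in GFP- cells and a difference of -1.85 ± 0.21 (SE, adjusted p = 6.2e-05). Id1, the relative of Id4, was at 806 to 4190.2 (median 1447) in astrocytes and 6362, 8551 and 8647 in GFP- cells, lower, with a difference of -2.21 ± 0.50 (SE, adjusted p = 0.0070). The glutamate receptor Grm7 was at 0 to 7.87 (median 0) in astrocytes and 228, 144 and 212 in GFP- cells, lower, with a difference of -6.62 ± 0.94 (SE, adjusted p = 3.5e-04), against the higher Grm3. Among inhibitors of metalloproteinases, Timp4 was at 16537 to 32769 (median 26649) in astrocytes and between 899 and 2934 in GFP- cells and differed by 3.89 ± 0.32 (SE, adjusted p = 8.8e-06). Timp1 had 0 reads in all 7 astrocyte samples and was at 30.5, 31.8 and 7.95 in GFP- cells, at least 6.63-fold lower. Gpc5, a heparan sulfate proteoglycan of the membrane, differed by 3.02 ± 0.29 (SE, adjusted p = 2.1e-05), and its relative Gpc3 was at 0 to 64.9 (median 0) in astrocytes and 1391, 870.4 and 1354 in GFP- cells (adjusted p = 0.0053). The claudin Cldn5, of endothelial tight junctions, was at 591 to 13812 (median 2744) in astrocytes and 27533, 46883 and 48411 in GFP- cells, against the higher Cldn10. The lower members Slc7a8, Slc25a13, Slc39a8, Gabrb2, Grin2d, Nr2f2 and Wnt5b were not called by edgeR (adjusted p 0.072, 0.11, 0.11, 0.089, 0.11, 0.10 and 0.20).

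**Figure D5:**
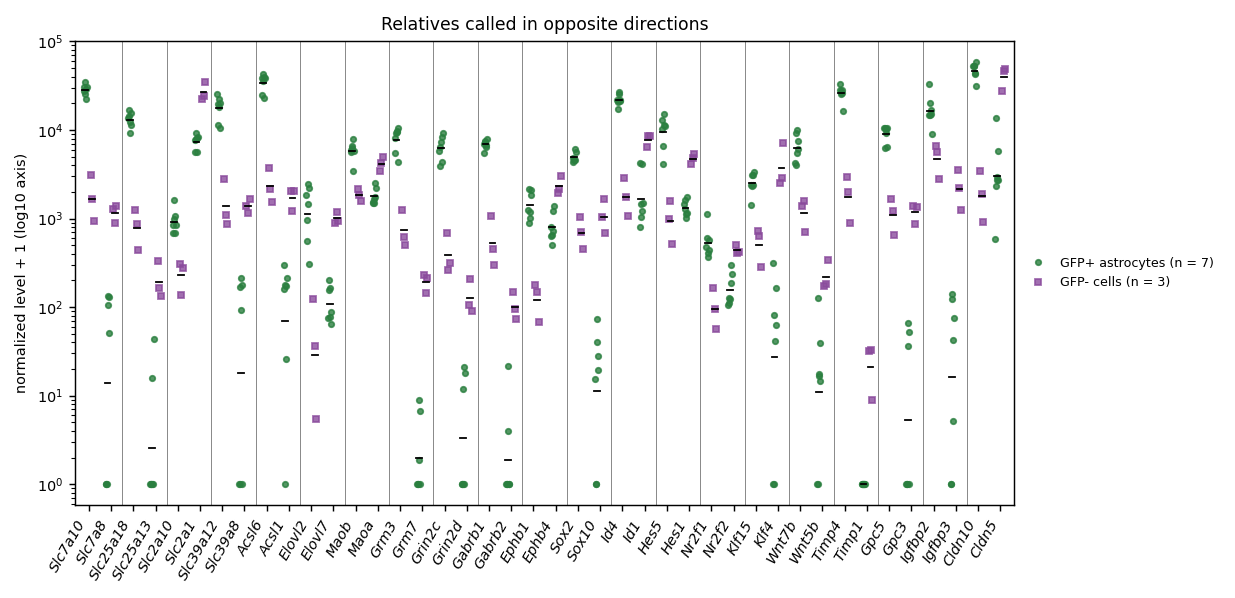
Normalized level + 1 (log10 axis) of 21 pairs of related genes in each of 7 GFP+ astrocyte samples (circles) and 3 GFP- samples (squares), with geometric means of level + 1 as bars and pairs set apart by lines. The left member of each pair lies higher and the right member lower in all astrocyte samples, and many right members have astrocyte samples at 0 reads (plotted at 1).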

How the data were processed

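RNA of FACS-sorted hippocampal cells was amplified with SMARTer Ultra Low v4, made into Nextera XT libraries and sequenced as paired reads. The authors mapped reads to mm10 with STAR 2.4.0, counted them over constitutive regions of the FAST DB annotation and deposited normalized counts, a signal in which each sample's read counts are divided by 1 DESeq2 size factor. Per the labels, FastQC, Picard and SAMtools were also used. Whether strand was used and how multimapping reads were treated is not given in the sources used here. Every value was a whole multiple of 1 read within 0.001, so reads were recovered (100% of values whole). 

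Samples were grouped by the labels, 7 GFP+ astrocyte and 3 GFP- samples of 19. Genes with a mean of at least 10 in either group were tested with limma 3.58.1 (R 4.3.3) on log2(level + 1), without covariates, and p-values were adjusted by Benjamini and Hochberg over all 26709 genes. Fold changes are differences of mean log2(level + 1), which understate the change of genes with few reads in every sample and exceed the ratio of mean levels for some genes with astrocyte samples at 0. edgeR 4.0.16 (quasi-likelihood) and DESeq2 1.42.0 on the recovered reads were alternatives, and edgeR calls used the same thresholds. The limma fit was tested on simulated data. An exact permutation test of 7 against 3 samples could not go below 0.00833.

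The gene lists and the compared groups were chosen with earlier results of these data known. Per list, up to 3 higher and 3 lower genes with the largest differences were named among called, non-overlapping genes with 1 symbol on 1 entry and a mean of at least 100 in the higher group, besides the markers and the 10 largest differences overall in each direction. Others are said to be named after their values were seen, or complete a short set of calls. No pair of samples was a duplicate (correlations of 0.641 to 0.911). Levels count reads, not molecules, and floors of 3 reads (3.53 in astrocytes, 3.27 in GFP- cells) cover counting error only. Promoters are RefSeq sequences of GRCm38.p6. A few list members are counted but not reported here by name. Figures used matplotlib 3.10.9.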

Additional observations from a re-analysis of the deposited data

Results flagged for a closer look

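Of 223 named genes, 28 had 1 of the 7 astrocyte samples whose gap to its nearest neighbour, relative to the range, exceeded Dixon's 95% critical value. Gaps were taken on log2(level + 1). Chance gives about 1 in 20 groups where values spread normally. A gene with reads in only 1 astrocyte sample is always flagged, because its gap equals its range. The chance rate therefore does not apply to such genes, and the count of 28 cannot be set against it. In most of the 28 genes the median was 0 reads and the flagged sample was the highest. In astrocyte sample 4 these were Slc47a1 at 11.8, Aox3 at 43.3, Myt1 at 37.4, Gata6 at 25.6, Sfrp2 at 27.5, Mmp9 at 12.8, Cdh3 at 41.3, Itga9 at 7.87, Mki67 at 61 and Moxd1 at 60. In sample 5 they were Slc5a7 at 1.73, Grik3 at 5.19, Ret at 19, Il1r2 at 6.06, Gsx1 at 6.92, Fstl5 at 24.2 and Ptgs2 at 6.92. In sample 7 they were Cacna1e at 11.3, Ahr at 35, Itgal at 32.7 and Ltf at 13.5, and in sample 2 Kif26a at 109. All of these genes were lower in astrocytes, and the flagged values lay below the 3 GFP- samples.

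Among abundant genes, Btbd17 was at 29708 in sample 2 against a median of 17833. Low samples were flagged for Slc25a4 at 12406 and Mpc1 at 970.0 in sample 7 (medians 19473 and 1844), and Gpt at 2119.7 in sample 4 (median 3514). Sample 3, which had the fewest genes with reads, was lowest for Ddc at 1.18 (median 122) and Acsl1 at 0 (median 173).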

How the results depend on the processing

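Of 308 named or marker genes, 183 kept their call in all 25 alternatives. Calls were lost most often in edgeR (70 genes), without GFP- sample 3 (62), 2 (55) or 1 (51), in DESeq2 (51) and with the replicate block (51). The lower count moved by more than 1.5 times with a minimum level of 100 (3127), in edgeR (2930, beside 2258 higher) and in DESeq2 (3519, beside 2532 higher, with 302 adjusted p-values NA). The higher count fell to 1021 under equal upper quartiles. The median difference of all genes was -0.74 with a minimum of 100, 0.00 when centred, -0.37 in edgeR and -0.67 in DESeq2. After centring the difference of Maoa was 0.08. Leaving out 1 sample gave 1337 to 2087 higher and 3955 to 6689 lower genes and medians of -1.43 to -1.12, and the lower count was 4189 without GFP- sample 1 and 3955 without GFP- sample 3. Without astrocyte samples 1, 2 and 3, an alternative chosen after seeing the data, 2347 genes were higher and 6989 lower (1741 and 5124 of the reported ones), with a median of -0.80. The causes were not tested.

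Astrocyte and GFP- samples share replicate numbers, but deviations of same-numbered samples correlated at 0.0176, 0.0188 and -0.0155, so the numbers were not taken as pairs. With the replicate number as a block, 1194 genes were higher and 5650 lower.

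With 3 GFP- samples, the number of lower calls ran from 2930 (edgeR) to 9172 (sample quality weights) over the alternatives. Levels of genes at 1 to 3 reads cannot be told from 0 at this depth.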

Other observations

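Genes with the largest differences overall were chosen among those whose groups do not overlap. Among the higher ones, Ppp1r3g, a glycogen-targeting subunit of protein phosphatase, was at 2462 to 4183 (median 2850.2) in astrocytes and 181, 66.5 and 104 in GFP- cells and differed by 4.84 ± 0.31 (SE, adjusted p = 7.0e-06). Cxcl14, a chemokine, was at 14241 to 29262 (median 20095) in astrocytes and 1293, 876 and 322 in GFP- cells and differed by 4.81 ± 0.37 (SE, adjusted p = 7.2e-06). Btbd17, a BTB-domain protein, was at 16488 to 29708 (median 17833) in astrocytes and 1589, 502 and 429 in GFP- cells, and the unnamed transcripts Gm11681 and 4933427I22Rik differed by 4.86 and 5.01. Olfr287, annotated as an olfactory receptor gene, was at 1045 to 3236 (median 1815) in astrocytes and 206.9, 50.7 and 22.98 in GFP- cells and differed by 4.80 ± 0.58 (SE, adjusted p = 1.0e-04). Otof, otoferlin of hair cell synapses, spread over a wide range, at 13.5 to 869.9 (median 83.0) in astrocytes and 7.62, 0 and 0 in GFP- cells, with a difference of 5.70 ± 1.27 (SE, adjusted p = 0.0062).

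Among the lower ones, Ptgs2, cyclooxygenase 2, had reads in 1 astrocyte sample (6.92) and was at 1264, 710.1 and 885 in GFP- cells. The myeloid granule genes Mpo and Chil3 had 0 reads in all 7 astrocyte samples and were at 178, 729.7 and 571 and at 309, 779 and 255 in GFP- cells, at least 139.5-fold and 127-fold lower, the latter 79.8-fold without GFP- sample 2. Ltf, lactoferrin, was at 0 to 13.5 (median 0) in astrocytes and 457, 1578 and 367 in GFP- cells, and Thbs1, thrombospondin 1, at 0 to 53.1 (median 0) in astrocytes and 2533, 935 and 1425 in GFP- cells. Blood cell markers summed to 18.1% of the GFP- level in astrocytes, and their part in these values was not tested.

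Some lower genes were far higher in 1 GFP- sample than in the others (chosen after their values were seen). The nicotinic receptor subunit Chrnb4 was at 17.4, 28.0 and 1077, the neurogenic factor Neurod4 at 13.1, 39.3 and 1344 and the cadherin-related Cdhr1 at 19.6, 29.5 and 689 in GFP- cells, with 0 reads in all 7 astrocyte samples. GFP- sample 3 was the high one in these 3. Coch was at 18371, 1507 and 247, Moxd1 at 5426, 659 and 83.1, Lum at 5688, 1013 and 400.4, Itga8 at 3490.2, 701 and 646 and Gata6 at 522, 80.9 and 58.3 in GFP- cells. GFP- sample 1 was the high one in these 5, and its fibroblast marker sum was 29246 against 11269 and 8862 in samples 2 and 3, whose part was not tested. Of 25 alternatives, Moxd1 lost its call in 0, and Chrnb4, Neurod4, Cdhr1, Coch and Itga8 lost theirs in 1. Gata6 lost its call in 2 and Lum in 5.

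The 9 astrocyte samples from mice with the APP transgene, 4 with GFP virus alone and 5 with a virus for SOCS3 added, did not enter the comparison. In them Slc15a2 was at 2869.9 to 4513 (median 3576), Ntsr2 at 96988 to 127301 (median 112943), Hsd11b1 at 14663 to 27689 (median 20056), Fezf2 at 1627 to 3195 (median 2158) and Htra1 at 55419.9 to 90834 (median 71144). Every one of these values lay above the 3 GFP- samples. Ppp1r3g was at 166 to 5872 (median 4044), of which the lowest lay within the GFP- range. Otof was at 0 to 171 (median 34.2), also down to the GFP- values.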
